A study of Mus musculus with 8 samples.

Results

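The genes described here encode the matrix metalloproteinases (MMPs), the membrane-bound ADAM proteases, the secreted ADAMTS proteases, the ADAMTS-like (ADAMTSL) proteins and the tissue inhibitors of metalloproteinases (TIMPs) of mouse. Members were chosen by gene symbol alone. They number 63 of the 24755 genes of the series: 15 MMPs, 21 ADAMs, 19 ADAMTS genes, 5 ADAMTSL genes and 3 TIMPs. Of these, 61 were analysed in hair follicle stem cells (HFSCs), 28 in epidermal stem cells of the interfollicular skin (EpdSCs) and 26 in both. Mmp3 and Mmp13 were the 2 members analysed in EpdSCs alone.

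The libraries are bulk RNA-seq of cells sorted from dorsal skin in telogen, 2 WT and 2 Msx2-KO libraries for each cell type. WT mice are C57BL/6J, and the Msx2-KO allele is a germline insertion of a neomycin cassette upstream of exon 2. By the labels the WT HFSC libraries come from mice of 2 months and all other libraries from mice of 6 months, so age and genotype cannot be told apart in HFSCs. In both cell types the names given to the WT and to the Msx2-KO libraries also fall in separate sets. What these names stand for is not stated, so genotype cannot be told apart from a difference between the sets. The allele is present in every tissue from before birth, so an effect in the sorted cells and an effect of their surroundings cannot be told apart.

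MMPs cleave collagens, laminins and other matrix proteins, and also growth factors and receptors. Most are made as inactive precursors. MT1-MMP, the product of Mmp14, sits in the cell membrane, and together with TIMP2 it activates the precursor of MMP2, so Mmp14, Timp2 and Mmp2 form a known activation circuit. ADAM10 and ADAM17 cut membrane proteins close to the cell surface, among them Notch receptors for ADAM10 and ligands of the EGF receptor for ADAM17. ADAMTS proteases act on proteoglycans and procollagens, while ADAMTSL proteins lack the protease domain and several of them bind fibrillin. TIMP3 differs from the other TIMPs in being bound to the matrix and in inhibiting ADAM17 and several ADAMTS proteases. RNA levels do not show how much of any precursor is activated or inhibited.

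Msx2 itself was not lower in a way that would check the labels. In HFSCs WT replicates 1 and 2 had 53 and 7 estimated counts and Msx2-KO replicates 1 and 2 had 40 and 18, and the log2 fold change came to -0.20 (standard error, SE, 1.23, edgeR, adjusted p = 0.975). In EpdSCs the authors' normalized values of Msx2 were 58.5, 85.4, 150 and 22.2 in the same order, a log2 difference of -0.27 (SE 1.10, limma, adjusted p = 0.865). Counts per gene do not separate the exons on either side of the insertion. The libraries are therefore called the libraries labelled Msx2-KO, and each direction below rests on those labels. In skin sections the paper reports no Msx2 RNA in Msx2-KO mice. By protein staining it reports K10 and K1 in the mutant bulge and more K10 in the epidermis. The Krt10 values here are RNA of sorted cells and not protein in whole tissue, so they are unlike that staining. In the same order Krt10 had 213, 114, 2462 and 9917 normalized counts in HFSCs, and 158740, 107937, 16336 and 30738 in EpdSCs.

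In every list of 4 values below, the order is WT replicate 1, WT replicate 2, Msx2-KO replicate 1 and Msx2-KO replicate 2. The HFSC libraries held 4324511, 3132974, 11016659 and 6895606 counts, of which mitochondrial ribosomal RNA took 8.94, 36.3, 49.4 and 53.2%. They had counts for 22489, 19672, 11414 and 14268 genes, and for 56, 49, 19 and 30 of the 61 members. The library with the most counts, Msx2-KO replicate 1, thus held the fewest genes and the fewest members. The log2 values of the WT libraries correlated at 0.928 and those of the libraries labelled Msx2-KO at 0.578. In EpdSCs the normalized totals were 16478545, 14681964, 24694442 and 14216483, with 15870, 15938, 12728 and 15170 genes above 0 and 27, 27, 26 and 27 of the 28 members. The share of mitochondrial ribosomal RNA was 23.5, 16.4, 0.0730 and 6.18%, and a single read was worth 1.08, 0.9485, 1.273 and 0.674. The correlations were 0.952 in WT and 0.844 in the libraries labelled Msx2-KO. In both cell types Msx2-KO replicate 1 held the fewest genes and the fewest members. In HFSCs the libraries labelled Msx2-KO correlated no better with each other than with WT (0.601 to 0.633). Values of 0 in EpdSCs are given as listed, after the authors' scaling and filter.

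Marker genes were read as a check of the labelled cell types. In HFSCs all 10 genes of an HFSC marker list were analysed, led by Krt15, with sums of 58315, 57309, 35528 and 35810 normalized counts and none at 0 in all libraries. The sorting marker Cd34 had 2995, 2662, 1081 and 876.7. Of an EpdSC list, 6 of 7 genes were analysed in HFSCs, led by Col17a1, with sums of 48319, 48856, 30740 and 29304. In the EpdSC table, 7 of 7 genes of the EpdSC list summed to 246705, 294511, 673154 and 532527, led by Krt14, and the gene of the sorting marker Sca-1, Ly6a, had 472, 544, 826 and 3493. There, 9 of 10 genes of the HFSC list summed to 258842, 307377, 831732 and 619930, also led by Krt14. The lists share Krt14, Krt5 and Itga6, which make up most of both sums (177571, 209404, 599971 and 439952), so these sums do not tell the cell types apart. Without the 3 shared genes, the EpdSC list summed to 69133, 85107, 73183 and 92575 and the HFSC list to 81270, 97973, 231761 and 179978. The latter is almost all Krt15 (79951, 96241, 230109 and 177798). Itgb4 of the EpdSC list had 7432, 11067, 183 and 1148.

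In HFSCs, 30 of the 61 members passed the filter on low counts: 5 MMPs, 9 ADAMs, 10 ADAMTS genes, 4 ADAMTSL genes and 2 TIMPs. A gene was called when its adjusted p over all genes tested was under 0.05 and its fold change over 2. No member was called, and neither was any of the 14422 genes tested (0% higher and 0% lower). In 17 members both libraries labelled Msx2-KO were below WT and in 3 above, against 33.5% (4837) and 17.5% (2527) of all genes, and the groups overlapped in 10. When libraries were scaled to equal totals (library totals), 21 members were below and 0 above, against 49.8% (7176) and 5.98% (863) of all genes. An unadjusted p under 0.05 was found for 7 lower members and 1 higher member, against 12.8% (1849) and 5.3% (765) of all genes. The median log2 fold change was -1.04 over the members and -0.14 over all genes. Nothing was tested on the members as a set, so these shares are counts only. The smallest adjusted p of the whole fit was 0.143, shared by 1586 genes, and among them were 7 members, all lower: Adamtsl3, Mmp11, Adamts10, Adamts6, Adam1b, Adam9 and Adamtsl4. DESeq2 in place of edgeR called 2.29% of the genes higher (330) and 2.5% lower (360), and of the members it called 2, Adamts10 and Adamtsl3, both lower.

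In EpdSCs all 28 members were tested: 9 MMPs, 8 ADAMs, 6 ADAMTS genes, 3 ADAMTSL genes and 2 TIMPs. No member was called, while 1.57% of the 16231 genes were called higher (255) and 7.78% lower (1263). In 15 members both libraries labelled Msx2-KO were below WT and in 6 above, against 44.5% (7228) and 27.8% (4508) of all genes, and 7 members overlapped. With library totals 16 were below and 4 above, against 46.2% (7500) and 24.7% (4014) of all genes. An unadjusted p under 0.05 was found for 6 lower and 3 higher members, against 23.1% (3752) and 12.2% (1974) of all genes. The median log2 difference was -0.98 over the members and -0.64 over all genes. The smallest adjusted p of a member was 0.0586, that of Adam1a. With a pseudocount of 10 in place of 1, 3 members were called, all lower: Adamts1, Adam1a (adjusted p = 0.0434 from limma) and Adamts14 (adjusted p = 0.0490 from limma). That setting called 1354 of the 16231 genes lower and 619 higher, and a pseudocount of 0.1 called no member. The p-values measure only the spread between these libraries, which may be technical, since the labels do not say whether replicates come from separate animals.

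Among the MMPs tested in HFSCs, Mmp14 and Mmp2 had the highest levels per kb of transcript, with means of 51.9 and 48.4 normalized counts per kb over the 4 libraries. In the same order they averaged 54.8 and 79.9 per kb in WT, and 49.0 and 16.9 in libraries labelled Msx2-KO. Mmp14, on chromosome 14 from 54431612 to 54445364, had 302 and 351 normalized counts in WT, against 459 and 126 in libraries labelled Msx2-KO, with a log2 fold change at -0.16 (SE 0.68, edgeR, adjusted p = 0.966). The groups overlapped, with 1 library labelled Msx2-KO above and 1 below both WT libraries. The log2 fold change of Mmp14 was 0.49 without Msx2-KO replicate 2 and -0.90 with library totals. Mmp2, on chromosome 8 from 92827291 to 92853420, encodes gelatinase A and had 288 and 250 normalized counts in WT, against 0 and 114 in libraries labelled Msx2-KO. The log2 fold change came to -2.26 (SE 2.09, edgeR, adjusted p = 0.733), and to -1.268 (adjusted p = 0.0219) without Msx2-KO replicate 1. When replicate 2 was left out the adjusted p was 0.0022, and no fold change is given because the library left has 0 counts. Both libraries labelled Msx2-KO were lower than both WT libraries. The library without a count of Mmp2 has the most counts in all, but also the fewest genes (11414) and the fewest members (19).

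Of the other MMPs in HFSCs, Mmp11 (stromelysin 3) had normalized counts of 13.8 and 17.8 in WT, against 0 in both libraries labelled Msx2-KO. From its 26 counts in WT it was at least 11.4-fold lower, a bound set at 3 counts over the group labelled Msx2-KO. The bound covers counting error alone, not the spread between libraries or a loss of complexity in them. Mmp15, which encodes the membrane-bound MT2-MMP, had 34.2 and 53.3 in WT, against 1.33 and 273 in libraries labelled Msx2-KO, so that group spans the WT values on either side. Mmp17, another membrane-bound MMP, had 35.8, 67.1, 0 and 38.9 with overlapping groups, which lie apart with library totals (57.1, 60.9, 0 and 24.4). Of the 8 MMPs that were not tested, Mmp20, Mmp24 and Mmp28 had counts in Msx2-KO replicate 2 and none in Msx2-KO replicate 1. Their normalized counts were 1.63, 1.97, 0 and 40.1 for Mmp20, 3.01, 2.31, 0 and 66.0 for Mmp24, and 3.26, 0, 0 and 58.3 for Mmp28. These 6 members were picked out after their values were seen.

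In EpdSCs no MMP had overlapping groups: 4 lay higher and 5 lower in both libraries labelled Msx2-KO, against 27.8% and 44.5% of all genes. Mmp2 had values of 200 and 133 in WT, against 1704 and 685 in libraries labelled Msx2-KO. Its log2 difference was 2.72 (SE 0.69, limma, adjusted p = 0.0897). The lower of the 2 libraries labelled Msx2-KO was well above the higher WT library. Per kb, Mmp2 averaged 49.4 normalized units per kb in WT, below Mmp28 (175 per kb), Mmp14 (134 per kb) and Mmp15 (116 per kb), and 354 per kb in the libraries labelled Msx2-KO. Mmp3 (stromelysin 1), on chromosome 9 from 7445822 to 7455975, had 39.0 and 10.4 in WT, against 160 and 380 in libraries labelled Msx2-KO, a log2 difference of 3.54 (SE 0.92, limma, adjusted p = 0.0919). That difference was 4.44 without WT replicate 1 and 2.63 without WT replicate 2. Mmp13, the interstitial collagenase of mouse whose gene lies in the same cluster, was listed at 0 and 0.948 in WT, against 29.3 and 6.07 in libraries labelled Msx2-KO (log2 difference 3.39, SE 0.95, limma, adjusted p = 0.103). The WT value of Mmp13 above 0 is that of a single read, and the groups of Mmp3 and of Mmp13 did not overlap. Mmp19 had 30.8 and 0 in WT, against 104 and 48.5 in libraries labelled Msx2-KO (log2 difference 3.67, SE 1.90, limma, adjusted p = 0.238), with the WT libraries far apart.

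The 5 MMPs that were lower in both EpdSC libraries labelled Msx2-KO include all 4 membrane-bound MMPs analysed there. Mmp14 had 765 and 834 in WT, against 2.55 and 395 in libraries labelled Msx2-KO. Its log2 difference was -4.42 (SE 2.51, limma, adjusted p = 0.269), and -1.01 without Msx2-KO replicate 1. Both libraries were below WT, but by very different amounts. Mmp28 (epilysin), a secreted MMP of keratinocytes on chromosome 11 from 83440768 to 83463071, had 665 and 694 in WT, against 1.273 and 73.9 in libraries labelled Msx2-KO. The log2 difference of Mmp28 was -5.70 (SE 1.88, limma, adjusted p = 0.129), and -3.18 without Msx2-KO replicate 1. Here even the higher library labelled Msx2-KO held less than 1 in 8 of either WT value. Mmp15 had 568, 687, 121 and 375 (log2 difference -1.55, SE 0.75, limma, adjusted p = 0.220). Its value was -0.73 without Msx2-KO replicate 1 and -2.36 without Msx2-KO replicate 2. Mmp24 had 20.1, 13.1, 0 and 6.14, and Mmp17 10.8, 30.4, 1.273 and 10.8, where WT replicate 1 and Msx2-KO replicate 2 differ by less than a single read, and the groups of Mmp17 overlap with library totals. Mmp13, Mmp15, Mmp17 and Mmp24 are described in EpdSCs after their values were seen.

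Within the activation circuit, the genes are given side by side, and no difference between them was tested. In HFSCs Mmp2 was lower in both libraries labelled Msx2-KO, while Mmp14 and Timp2 each had 1 library above and 1 below WT, with the same library, Msx2-KO replicate 1, on top in both. With library totals Timp2 is below WT in both (1562, 945, 944 and 214), while Mmp14 still overlaps (481, 319, 351 and 78.9). In EpdSCs Mmp2 was higher in both libraries labelled Msx2-KO, and Mmp14 and Timp2 were lower in both. In Msx2-KO replicate 1 of the EpdSCs, Mmp2 stood at 505 normalized units per kb and Mmp14 at 0.427 per kb. In Msx2-KO replicate 2 the values were 203 for Mmp2 and 66.3 for Mmp14 per kb. In the WT libraries Mmp2 stood at 59.4 and 39.4 normalized units per kb and Mmp14 at 128 and 139.9 per kb.

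Of the 9 ADAMs tested in HFSCs, both libraries labelled Msx2-KO were lower than WT in 6 and higher in none, against 33.5% and 17.5% of all genes. Adam9, on chromosome 8 from 24949611 to 25016927, encodes a membrane-bound sheddase and had 205 and 181 normalized counts in WT, against 24.6 and 44.0 in libraries labelled Msx2-KO. The log2 fold change came to -2.50 (SE 0.61, edgeR, adjusted p = 0.143). The 2 WT libraries lay close to each other, though not with library totals (327 and 165). The libraries labelled Msx2-KO lay less close, and the groups were far apart. Adam10 had 136, 189, 85.1 and 71.2 (log2 fold change -1.05, SE 0.52, edgeR, adjusted p = 0.429). Adam17 had 176, 146, 116 and 82.9 (log2 fold change -0.70, SE 0.49, edgeR, adjusted p = 0.618). For Adam10 and Adam17 both libraries labelled Msx2-KO were lower too, by a smaller margin than for Adam9. Adam15 overlapped between the groups, with 134, 171, 135 and 57.0, but not with library totals (214, 155, 103 and 35.8). Adam1b, which encodes a fertilin subunit known from sperm, had 22 counts in WT, against 0 in the libraries labelled Msx2-KO, and was at least 9.63-fold lower. Both libraries labelled Msx2-KO were also low in Adam4 and Adam23, with no count in Msx2-KO replicate 1. Adam10, Adam15, Adam17, Adam1b, Adam4 and Adam23 are given here after their values were seen.

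In EpdSCs Adam10, Adam17 and Adam9 had WT means of 213, 166 and 143 normalized units per kb, and means over all 4 libraries of 253, 185 and 175 per kb. Adam10, on chromosome 9 from 70678997 to 70780229, had 1082 and 1008 in WT, against 2065 and 810 in libraries labelled Msx2-KO. The groups overlapped, and the log2 difference was 0.31 (SE 0.67, limma, adjusted p = 0.752) and -0.37 without Msx2-KO replicate 1. Adam17 had 1355, 1022, 1552 and 1371 (log2 difference 0.31, SE 0.49, limma, adjusted p = 0.657), with the lower library labelled Msx2-KO just above the higher WT library. Adam9 had 491, 690, 969 and 727 (log2 difference 0.53, SE 0.51, limma, adjusted p = 0.481), with the groups close to touching. With library totals the groups of both genes overlap, and the log2 differences were 0.04 for Adam17 and 0.26 for Adam9. Adam15, on the other hand, had 521 and 551 in WT, against 16.4 and 150 in libraries labelled Msx2-KO. That is a log2 difference of -3.39 (SE 1.22, limma, adjusted p = 0.147), and -1.83 without Msx2-KO replicate 1, with both libraries far below WT. Adam1a had 261, 195, 19.4 and 35.7, again with groups far apart (log2 difference -3.05, SE 0.57, limma, adjusted p = 0.0586). Adam19 had 36.3, 21.8, 12.7 and 0, and Adam22, a brain protein without protease activity, 32.5, 20.9, 2.55 and 8.76, both lower in the libraries labelled Msx2-KO. Adam8 overlapped, and with library totals it is below WT in both. Adam1a, Adam19 and Adam22 are named after their values were seen.

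Among the 10 ADAMTS genes tested in HFSCs, 6 were lower and 1 was higher in both libraries labelled Msx2-KO (33.5% and 17.5% of all genes). Adamts10, which encodes a protease that binds fibrillin, had 152 and 146 normalized counts in WT, against 0 and 2.59 in libraries labelled Msx2-KO. The ratio of the mean normalized counts is 115. With the counts pooled within each group over its summed effective depth, 261 in WT against 2, the ratio is 171, with a 95% interval of 46.9 to 1422 (adjusted p = 0.143 from edgeR, 0.000651 from DESeq2). This interval, and the bounds for genes at 0, cover counting error alone and not the spread between libraries. Adamts7 had 33.8, 37.8, 0 and 9.06 normalized counts (log2 fold change -2.98, SE 2.22, edgeR, adjusted p = 0.646). Adamts5, an aggrecanase, had 26.9, 61.1, 16.6 and 0 (log2 fold change -2.36, SE 2.17, edgeR, adjusted p = 0.731). In Adamts7 and Adamts5 alike both libraries labelled Msx2-KO were below WT, each with 1 of the 2 at 0, and the library at 0 was not the same. Adamts6 had 24 counts in WT, against none in the libraries labelled Msx2-KO, at least 10.5-fold lower. Adamts9, a versican-cleaving protease, had 126, 131, 28.6 and 80.3, and Adamts18 had 23.6, 25.6, 0 and 18.1, lower in both as well. Adamts19 had 73.3 and 61.1 in WT, against 82.4 and 179 in libraries labelled Msx2-KO, with a log2 fold change at 0.95 (SE 0.68, edgeR, adjusted p = 0.626). Only Msx2-KO replicate 2 stood clear of WT. With library totals Adamts19 had 117, 55.5, 63.1 and 112, where the groups overlap, and a log2 fold change of 0.01, and without Msx2-KO replicate 2 it was 0.28. Adamts1 (87.1, 197, 178 and 86.8), Adamts3 and Adamts17 (28.5, 55.2, 109 and 2.59) overlapped. With library totals Adamts1 had 139, 179, 136 and 54.5, lower in both. Adamts1, Adamts3, Adamts6, Adamts9, Adamts17 and Adamts18 were added after their HFSC values were seen.

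In EpdSCs the 2 ADAMTS genes with the highest WT means per kb, Adamts14 (221.5 normalized units per kb) and Adamts1 (130 per kb), were both lower in the libraries labelled Msx2-KO. Adamts14, which encodes a protease that removes the amino-terminal propeptide of fibrillar procollagens, had 1029 and 1274 in WT, against 24.2 and 135 in libraries labelled Msx2-KO. Its log2 difference was -4.29 (SE 1.00, limma, adjusted p = 0.0793), and -3.08 without Msx2-KO replicate 1 and -5.51 without Msx2-KO replicate 2. Adamts1, an aggrecan and versican protease on chromosome 16 from 85793827 to 85803113, had 733 and 641 in WT, against 1.273 and 20.2 in libraries labelled Msx2-KO. The log2 difference of Adamts1 was -6.63 (SE 1.26, limma, adjusted p = 0.0595), the lowest of all members. It was -5.02 without Msx2-KO replicate 1 and -8.24 without Msx2-KO replicate 2. Adamts1 was called with a pseudocount of 10 (adjusted p = 0.0360 from limma) and with a trend on the mean (adjusted p = 0.0491 from limma). In Msx2-KO replicate 1 the value of Adamts1 is that of a single read. For both genes the WT libraries agreed closely and both libraries labelled Msx2-KO were far below them. Adamts5, the neighbour of Adamts1 with 53.1 kb between the genes, had only 7.58, 1.90, 1.273 and 12.1. Adamts17 had 17.3, 25.6, 0 and 4.04 and Adamts6 17.3, 32.2, 10.2 and 14.2, both lower in both libraries labelled Msx2-KO, and Adamts9 overlapped. Adamts5, Adamts6, Adamts9 and Adamts17 were added after their EpdSC values were seen.

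Of the 4 ADAMTSL genes tested in HFSCs, 3 were lower and 1 was higher in both libraries labelled Msx2-KO (33.5% and 17.5% of all genes). Adamtsl4, which encodes a fibrillin-binding protein and lies on chromosome 3 from 95676201 to 95687917, had 873 and 716 normalized counts in WT, against 378 and 401 in libraries labelled Msx2-KO. The log2 fold change came to -1.03 (SE 0.24, edgeR, adjusted p = 0.143), the smallest standard error of any member tested. The groups were clearly apart, and at a mean of 141 normalized counts per kb only Timp2 stood higher per kb. Adamtsl3 had 86.3 and 86.8 in WT, against 0 in both libraries labelled Msx2-KO. From its 150 counts in WT it was at least 65.6-fold lower (adjusted p = 0.143 from edgeR, 0.00188 from DESeq2). Adamtsl5 had 129, 90.7, 35.9 and 79.0, lower in both. Adamtsl1 had 20.4 and 5.92 in WT, against 34.6 and 37.6 in libraries labelled Msx2-KO, with a log2 fold change at 1.43 (SE 1.26, edgeR, adjusted p = 0.714). Both were above WT, where replicate 2 held 3 counts, but with library totals Adamtsl1 had 32.4, 5.37, 26.5 and 23.6, where the groups overlap, and 0.39 on the log2 scale.

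In EpdSCs 1 of the 3 ADAMTSL genes was lower in both libraries labelled Msx2-KO, against 44.5% of all genes, and the others overlapped. Adamtsl5 had the highest WT mean of the 3, 98.2 normalized units per kb, with values of 388 and 540 in WT, against 12.7 and 160 in libraries labelled Msx2-KO (log2 difference -3.28, SE 1.38, limma, adjusted p = 0.181). Both libraries were below WT, and they differed from each other by more than 10-fold. The log2 difference of Adamtsl5 was -1.51 without Msx2-KO replicate 1 and -5.06 without Msx2-KO replicate 2. Adamtsl4 had 62.8, 109, 246 and 89.0 and Adamtsl1 98.6, 67.3, 99.3 and 35.0. With library totals Adamtsl1 is below WT in both (105, 80.3, 70.5 and 43.2). Of the 20 members tested in both cell types, Adamtsl5 and Adamts6 were the 2 with lower values in both libraries labelled Msx2-KO each time, against 15.3% of all genes tested in both (2010 of 13151). With library totals there were 5, Adam15, Adamts1 and Timp2 added, against 24.1% (3171). Adam19, which was not tested in HFSCs (24, 2, 0 and 0 counts), had the same order of groups. The members named here were picked out after their values were seen.

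Among the TIMPs, Timp2 had the highest level per kb of any member in HFSCs, a mean of 231 normalized counts per kb. Timp2, on chromosome 11 from 118301069 to 118355740, had 981 and 1041 normalized counts in WT, against 1231 and 341 in libraries labelled Msx2-KO. The log2 fold change came to -0.36 (SE 0.66, edgeR, adjusted p = 0.898), 0.28 without Msx2-KO replicate 2 and -1.12 with library totals. The groups overlapped, with Msx2-KO replicate 1 highest and Msx2-KO replicate 2 lowest of the 4. Timp3, on chromosome 10 from 86300372 to 86349506, had 159 and 153 in WT, against 507 and 307 in libraries labelled Msx2-KO. It was the only member with an unadjusted p under 0.05 in the higher direction (log2 fold change 1.38, SE 0.38, edgeR, adjusted p = 0.160). Both libraries labelled Msx2-KO were above both WT libraries. With scaling by library totals Timp3 had 252, 139, 389 and 193, where the groups overlap. Timp4 was not tested, with 7 and 1 counts in WT, against 0 in the libraries labelled Msx2-KO.

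In EpdSCs Timp3 had 453 and 1051 in WT, against 647 and 772 in libraries labelled Msx2-KO, a log2 difference of 0.03 (SE 0.64, limma, adjusted p = 0.971). Both libraries labelled Msx2-KO lay between the WT libraries. Timp2 had 117, 186, 110 and 46.5 (log2 difference -1.04, SE 0.68, limma, adjusted p = 0.323), lower in both libraries labelled Msx2-KO, in replicate 1 by a small margin. The log2 difference of Timp2 was -1.64 without Msx2-KO replicate 1 and -0.43 without Msx2-KO replicate 2. Per kb, Timp3 averaged 89.7 and Timp2 29.4 normalized units per kb in EpdSCs, the reverse of their order per kb in HFSCs, where Timp3 averaged 34.6 normalized counts per kb.

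**Figure D1:**
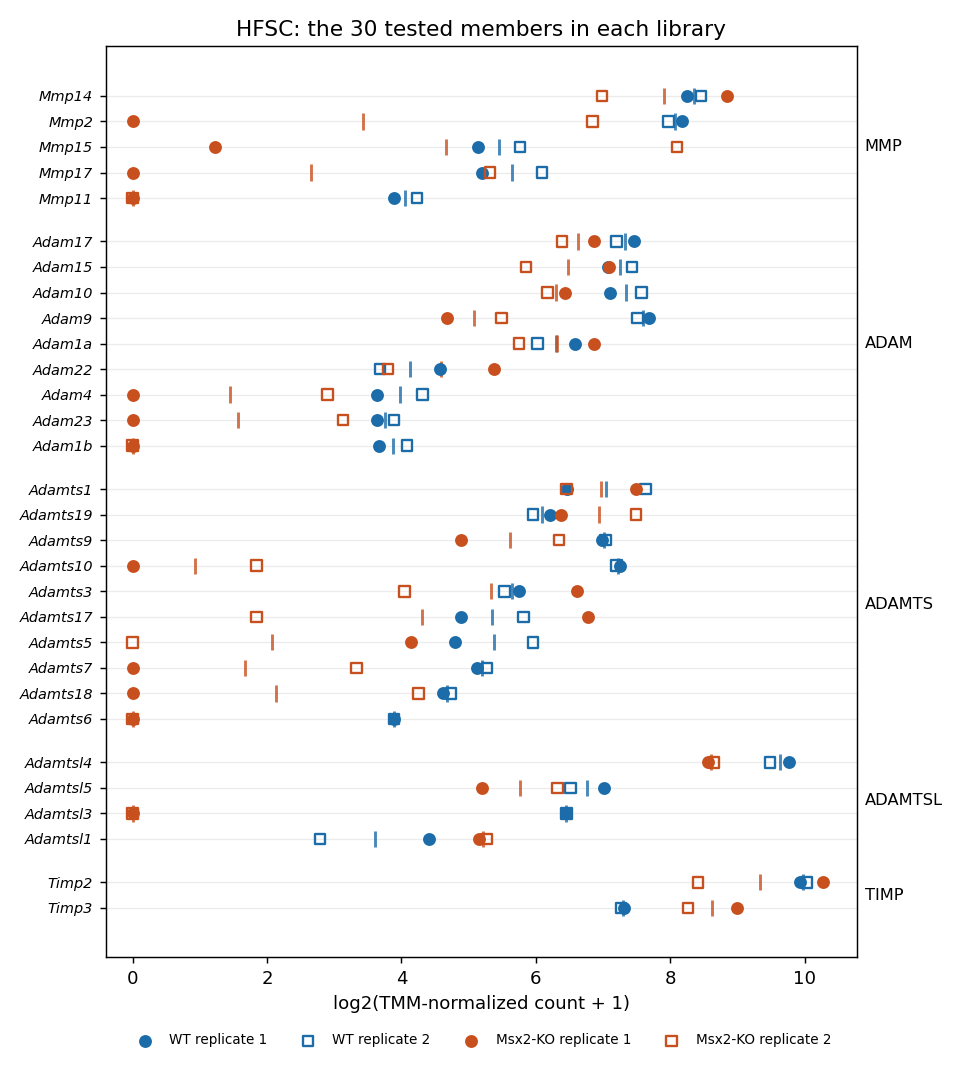
Family members tested in HFSCs: log2(normalized count + 1) on the horizontal axis in each of the 4 libraries, WT in blue and labelled Msx2-KO in orange, with a filled circle for replicate 1, an open square for replicate 2 and a bar for the group mean. Adam9 has both orange points below both blue points (24.6 and 44.0 against 205 and 181), and Mmp2 has 1 orange point at 0.

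**Figure D2:**
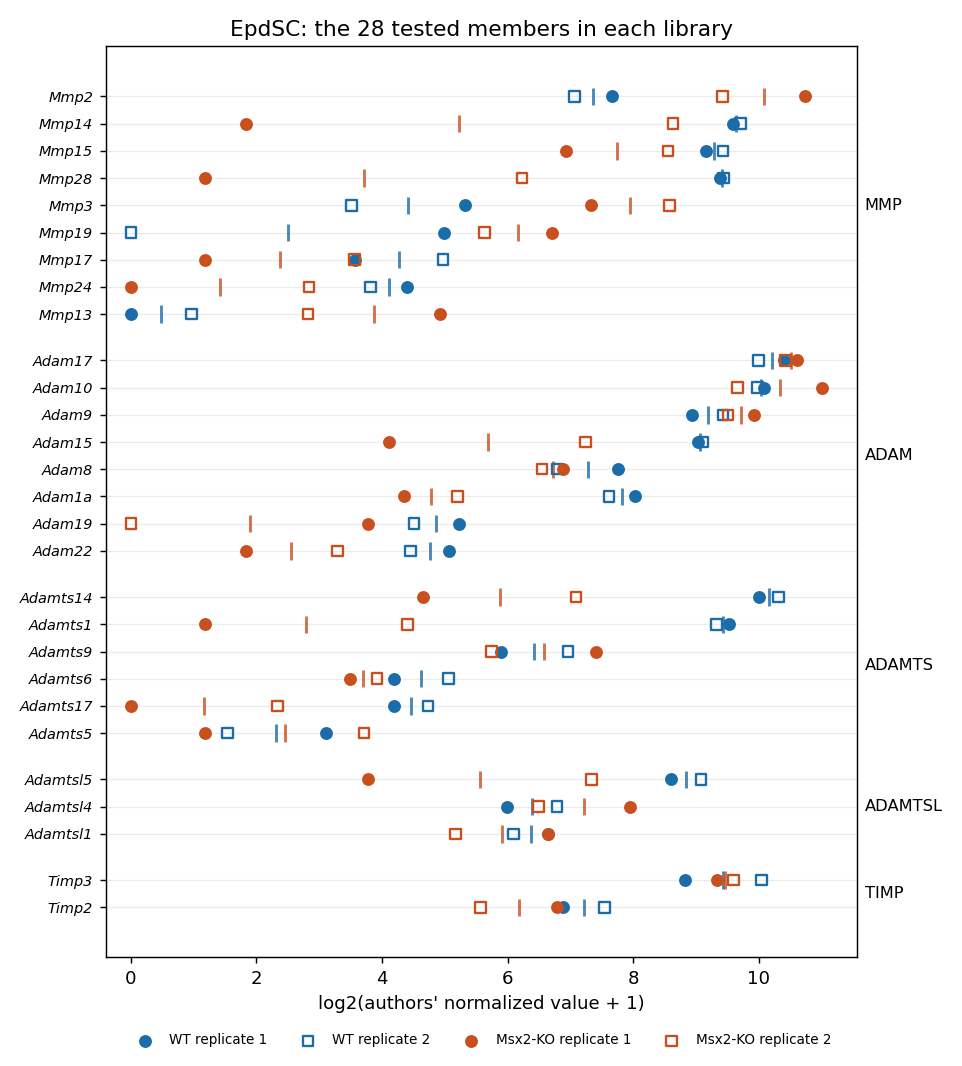
Family members in EpdSCs: log2(normalized value + 1) on the horizontal axis in each of the 4 libraries, with colours and symbols as in the HFSC figure. Adamts1 and Mmp28 have an orange circle at 1.273 each, and Mmp2 has both orange points (1704 and 685) above the blue ones.

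The 31 members that were not tested in HFSCs add presence and absence at low counts. In 28 of them a WT library held at least 1 count, and in 5 a library labelled Msx2-KO did, all 5 in Msx2-KO replicate 2. Over all genes the libraries held counts for 22489, 19672, 11414 and 14268, and the share among all untested genes was not counted. Adamts2, a procollagen protease, had 31, 4, 0 and 0 counts and Adam19 had 24, 2, 0 and 0, most of them in WT replicate 1. Both were chosen after their values were seen. Adam6a, Adamts4 and Mmp8 had 0 counts in all 4 libraries. Of the 30 tested members, 4 had 0 counts in both libraries labelled Msx2-KO, and the share among all tested genes was not counted either. The members summed to 1428, 1226, 1155 and 776 CPM of nuclear genes in HFSCs and to 758, 839.5, 350 and 499 CPM in EpdSCs.

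Calls of members depended on which library was left out. In HFSCs 19 of 37 members tested were called without Msx2-KO replicate 1 (51.4%, against 36.6% of all genes) and 21 of 33 without Msx2-KO replicate 2 (63.6%, against 59.1%), where the lone library was assumed to vary like the WT group. Of the 10 called in both cases, 8 had the same direction: Adam1b, Adam9, Adamts10, Adamts6, Adamtsl3, Adamtsl4, Mmp11 and Mmp2, all lower, while 18.8% of all genes tested (2717) also had calls in the same direction. The other 2, Adamts17 and Mmp15, were called in opposite directions. For Mmp15 the log2 fold change was 2.67 without Msx2-KO replicate 1 and -4.90 without Msx2-KO replicate 2. In EpdSCs 6 of 28 members were called without Msx2-KO replicate 1 (21.4%, against 37.6% of all genes) and 13 without Msx2-KO replicate 2 (46.4%, against 63.9%), with 5 in both, all lower: Adam15, Adam1a, Adamts1, Adamts14 and Mmp28. Among all EpdSC genes, 31.1% (5051) had such calls in the same direction. No member was called when a WT library was left out, in either cell type. Those fits called no EpdSC gene and few HFSC genes of any kind, so this does not single out the members.

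Of the 20 members tested in both cell types, 7 had negative values in both, 1 was positive in both, 7 were negative in HFSCs and positive in EpdSCs, and 5 the reverse. Of the 13151 genes tested in both, the shares in the same order were 33.2%, 18.5%, 21.5% and 26.8%. With library totals the members numbered 11, 0, 6 and 3, against 50.5%, 7.45%, 28.0% and 14.1% of all genes. Mmp2, Adam9 and Adam17 had groups that did not overlap in either cell type and lay in opposite directions, but with library totals the EpdSC groups of Adam9 and Adam17 overlap. For groups of this kind no share of all genes was counted. The WT mice also differ in age between the cell types. No test was made across cell types, since the 2 tables were normalized separately.

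**Figure D3:**
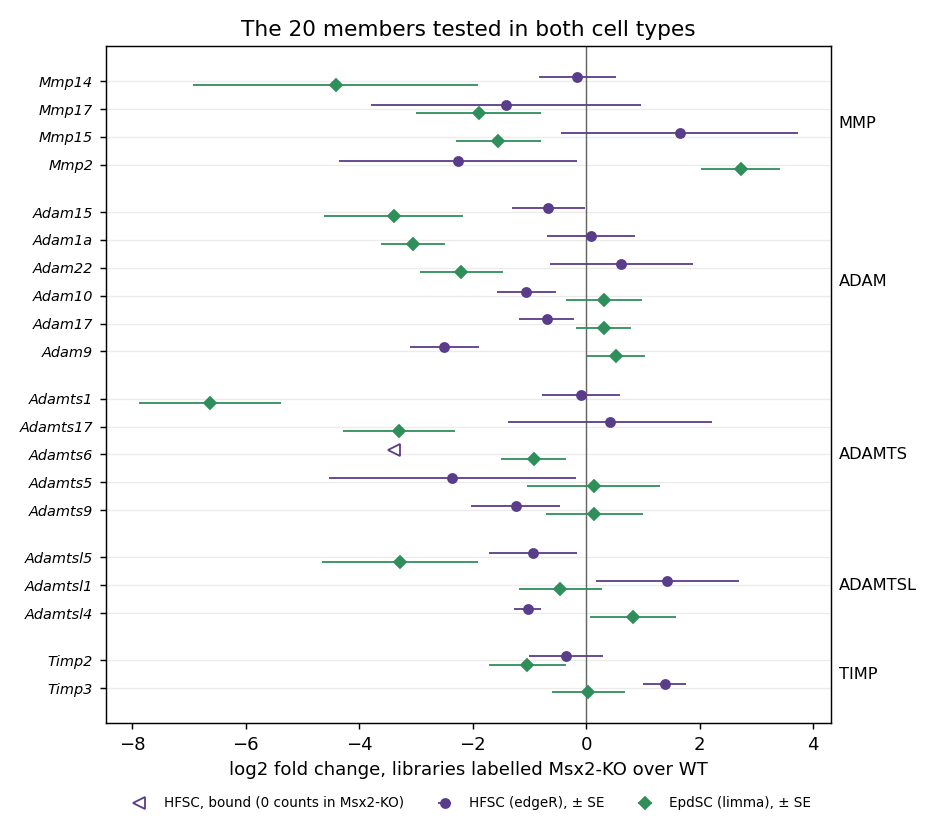
Log2 fold changes, libraries labelled Msx2-KO over WT, with standard errors on the horizontal axis for the 20 members tested in both cell types (HFSCs in purple, EpdSCs in green), where the open triangle of Adamts6 is a bound at -3.39. Mmp2 lies at -2.26 in HFSCs and 2.72 in EpdSCs.

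Markers of other cells are given beside these values, and their part in the result was not tested. The share of all genes at 0 in both libraries labelled Msx2-KO was not counted in either cell type. The markers at 0 are therefore given without a background. In HFSCs, 6 of 10 fibroblast genes were analysed and summed to 320, 406, 186 and 86.8 normalized counts, led by Col1a2, with 2 of the 6 at 0 in both libraries labelled Msx2-KO. Endothelial genes (6 of 8, led by Pecam1) summed to 92.0, 49.6, 37.2 and 24.6, with 3 at 0 in both libraries labelled Msx2-KO. Immune genes (8 of 12, led by Cd74) summed to 92.2, 39.8, 123 and 63.5, with 7 at 0 in both libraries labelled Msx2-KO. Melanocyte genes (6 of 7, led by Mitf) summed to 1187, 1329, 718 and 324, with 2 at 0 in both. Suprabasal genes (8 of 8, led by Krt10) summed to 1574, 1897, 5419 and 18897, and sebaceous genes (6 of 7, led by Scd1) to 209, 191, 7235 and 5637, none at 0 in both libraries labelled Msx2-KO. The suprabasal and sebaceous sums were thus higher, and the fibroblast, endothelial and melanocyte sums lower, in both libraries labelled Msx2-KO. The melanocyte sum rests on Mitf (1086, 1136, 259 and 212), and the other 5 genes summed to 102, 193, 459 and 111, which is not lower, with Dct at 64.3, 124, 298 and 88.1. In bulk RNA, fewer cells of a type and less RNA per cell cannot be told apart.

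In EpdSCs, 1 of 10 fibroblast genes was analysed, Thy1, with 704, 190, 2251 and 1018, higher in both libraries labelled Msx2-KO, as were 27.8% of all genes. The others, among them Col1a1, Col1a2, Col3a1, Dcn and Pdgfra, are not listed in EpdSCs after the authors' filter. By the paper, EpdSCs were sorted as CD34 negative, CD49f positive and Sca-1 positive. Endothelial genes (2 of 8, led by Pecam1) summed to 8.67, 26.6, 24.2 and 18.2, with 1 at 0 in both libraries labelled Msx2-KO. Immune genes (10 of 12, led by Cd74) summed to 765, 67.1, 53.3 and 29.8, with 4 at 0 in both, and Mitf, the 1 of 7 melanocyte genes, had 112, 174.5, 24.2 and 238. Suprabasal genes (8 of 8, led by Krt10) summed to 290207, 207512, 42746 and 74931, where 6 lay below WT in both libraries labelled Msx2-KO and 2, Sbsn and Ivl, were called lower, against 44.5% and 7.78% of all genes. Sebaceous genes (3 of 7, led by Scd1) summed to 3849, 4648, 23827 and 10252, while Plin2 ran the other way (218.8, 136, 7.64 and 78.9). No suprabasal or sebaceous gene was at 0 in both libraries labelled Msx2-KO. The suprabasal sum was lower in both libraries labelled Msx2-KO, and whether it bears on any member was not tested.

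Lists of related proteolysis genes were counted in the same way, and no gene of them was called in HFSCs, where 17.5% of all genes lay above WT and 33.5% below. Of the genes tested in HFSCs, both libraries labelled Msx2-KO lay above WT and below WT in 0 and 1 of 5 of the plasminogen activator system, 0 and 2 of 4 proprotein convertases, and 1 and 1 of 5 iRhoms and TspanC8 tetraspanins, which guide ADAM17 and ADAM10. In the same order the counts were 1 and 0 of 3 cell surface regulators of MMPs, 0 and 0 of 4 astacin-like and meprin proteases, and 5 and 1 of 10 cathepsins and cystatins. They were 1 and 5 of 12 membrane proteins known to be shed and 1 and 2 of 3 ADAMTS substrates. Cst6, a cystatin, had 27.7, 5.92, 998 and 193 normalized counts, and the ADAMTS1 substrate gene Thbs1 had 1840, 2341, 1298 and 1101.

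In EpdSCs, where 27.8% of all genes lay above WT and 44.5% below, the counts above and below were 4 and 2 of 7 for the plasminogen activator system, 0 and 1 of 4 for proprotein convertases and 1 and 1 of 5 for iRhoms and tetraspanins. They were 3 and 0 of 3 for cell surface regulators, 0 and 2 of 2 for astacin-like and meprin proteases, 5 and 3 of 10 for cathepsins and cystatins, 3 and 6 of 14 for shed membrane proteins and 1 and 2 of 3 for ADAMTS substrates. Of the 48 genes of these lists tested in EpdSCs, 2 were called higher and 2 lower, against 1.57% and 7.78% of all genes. Rhbdf1, which encodes an iRhom, a partner of ADAM17, had 1358, 1446, 112 and 166, lower in both libraries labelled Msx2-KO with the groups far apart (log2 difference -3.35, SE 0.50, limma, adjusted p = 0.0416). Sdc1 (syndecan 1, which binds MMP7 and is itself shed) had 8054, 7906, 272559 and 116512, higher in both (log2 difference 4.48, SE 0.64, limma, adjusted p = 0.0387). Cst3 (cystatin C) had 3228, 2441, 39681 and 33608, also higher in both (log2 difference 3.70, SE 0.49, limma, adjusted p = 0.0341). Btc, a ligand of the EGF receptor that is shed, had 15.2, 15.2, 0 and 0.674 and was called lower (log2 difference -3.64, SE 0.53, limma, adjusted p = 0.0398). Plau had 902, 704, 0 and 50.6, Serpinb2 2996, 2833, 15964 and 12729, and Bmp1 570, 667, 127 and 291, none of them called.

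Several members lie side by side in the genome. On chromosome 9, 5 members (Mmp13, Mmp12, Mmp3, Mmp8 and Mmp20) lie within 402 kb, from 7272514 to 7674979 of GRCm38. Of the 5, Mmp3 and Mmp13 were analysed in EpdSCs, both higher in both libraries labelled Msx2-KO, and Mmp12, Mmp8 and Mmp20 in HFSCs, none of them tested. Adam1b and Adam1a lie 15.1 kb apart on chromosome 5. Exons of Timp3 overlap Syn3, those of Adam17 Iah1, those of Adam15 4731419I09Rik, those of Adam1a Tmem116 and Mapkapk5, those of Mmp28 1700020L24Rik, those of Mmp19 Tmem198b, those of Mmp11 Chchd10, those of Mmp12 Mmp1b, which was not analysed here, those of Mmp24 BC029722, those of Timp4 Syn2, those of Adamts9 A730049H05Rik and those of Adamts7 Tbc1d2b. Exons of Adam19, Adam3, Adam34, Adam8 and Adamts8 overlap only genes known by Gm numbers. The counting is not stated to use strand, so reads of the overlapping exons cannot be told apart.

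Promoters are shown for 3 members because AP-1 sites are known in the promoters of Mmp3 and Mmp13, and because MSX2 is a homeodomain protein. The 250 bases upstream of each RefSeq transcript start (GRCm38.p6) were searched for the AP-1 motif TGANTCA and for TAATTG, a homeodomain motif, on both strands. Of 32851 promoters, 6.75% (2217) held the first and 7.17% (2355) the second, and of the 41 members with a promoter, 5 held the first (Adam19, Mmp12, Mmp13, Mmp20 and Mmp3) and 3 the second (Mmp12, Mmp14 and Mmp3). Of the AP-1 holders analysed in EpdSCs, Mmp3 and Mmp13 were higher and Adam19 lower in both libraries labelled Msx2-KO. The motifs are in capitals, and each sequence is that of the plus strand: Mmp3 (chr9:7445572-7445821), with the 2 motifs side by side, Mmp13 (chr9:7272264-7272513), with an AP-1 motif, and Mmp14 (chr14:54431348-54431597), with a homeodomain motif. Whether MSX2 or AP-1 binds there was not tested.
Mmp3: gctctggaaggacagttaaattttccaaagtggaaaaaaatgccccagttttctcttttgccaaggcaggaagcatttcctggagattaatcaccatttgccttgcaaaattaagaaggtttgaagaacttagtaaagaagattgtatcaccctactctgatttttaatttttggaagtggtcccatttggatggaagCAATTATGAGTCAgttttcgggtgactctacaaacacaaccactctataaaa
Mmp13: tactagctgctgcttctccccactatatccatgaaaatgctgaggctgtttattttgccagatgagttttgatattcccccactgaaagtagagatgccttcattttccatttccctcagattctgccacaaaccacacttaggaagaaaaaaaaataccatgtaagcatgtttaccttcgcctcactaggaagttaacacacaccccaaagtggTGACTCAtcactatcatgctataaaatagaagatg
Mmp14: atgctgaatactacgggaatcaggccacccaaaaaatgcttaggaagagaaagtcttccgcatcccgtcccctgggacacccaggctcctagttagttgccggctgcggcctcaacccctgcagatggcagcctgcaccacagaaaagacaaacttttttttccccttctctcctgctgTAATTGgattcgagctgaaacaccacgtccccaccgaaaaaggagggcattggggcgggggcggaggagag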

How the data were processed

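The samples are 8 bulk RNA-seq libraries of sorted HFSCs and EpdSCs, 2 per genotype and cell type, grouped by their labels, with 0 value columns left unmapped. The authors made stranded total RNA libraries (SMARTer) and aligned them with STAR 2.7.3a in Partek Flow to GRCm38/mm10 with GENCODE genes. Their HFSC table was deposited as estimated counts that are not normalized, with reads that match several genes split into fractions. The EpdSC table was deposited as a signal: the authors had scaled estimated counts by a factor for each library and dropped low genes, by rules that are not stated. The authors also deposited their own comparisons of the genotypes, which hold p-values, FDR values, ratios and fold changes and were not used here.

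HFSC counts (23861 genes) were rounded, given TMM factors and put through the quasi-likelihood test of edgeR 4.0.16 on the 14422 genes past its filter, and normalized counts are scaled to 6101083 per library. A single HFSC count is worth 0.814, 1.97, 0.665 and 1.29 normalized counts in WT replicates 1 and 2 and Msx2-KO replicates 1 and 2. The EpdSC test was limma 3.58.1 on log2(value + 1), a scale that understates differences of low genes, with the trend off, on all 16231 genes. Calls needed a Benjamini-Hochberg adjusted p under 0.05 over all genes tested and a fold change over 2. A permutation test of 2 against 2 libraries cannot give an exact p under 0.333. Tested on simulated data (200 genes changed 8-fold, dispersion 0.05), edgeR called 185 of them and 10 unchanged genes, and limma 193 and 4. At a dispersion of 0.5 both called 0. The common dispersion of the HFSC data was 0.823. Levels per kb use summed exon lengths of GENCODE M21. R 4.3.3, DESeq2 1.42.0, Python 3.11.15 and matplotlib 3.10.9 were used.

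Members are the symbols that consist of Mmp, Adam, Adamts, Adamtsl or Timp and a number, with or without a letter. Named in full are members called in either cell type, all TIMPs tested, the 5 largest differences in each direction among members whose groups do not overlap and whose mean is at least 20, and the 5 with the highest mean level per kb. Members and lists were chosen with earlier results of these data known. The marker lists are fibroblast, endothelial, immune, melanocyte, suprabasal, sebaceous, HFSC and EpdSC. The related lists are the plasminogen activator system, proprotein convertases, iRhoms and TspanC8 tetraspanins, cell surface regulators of MMPs, astacin-like and meprin proteases, cathepsins and cystatins, shed membrane proteins and ADAMTS substrates. For each cell type 11 alternatives were tried, other tests, scalings, filters, pseudocounts, a replicate block and each library left out.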

Additional observations from a re-analysis of the deposited data

Results flagged for a closer look

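Adam17, Adam9 and Mmp2 are flagged because their groups did not overlap in either cell type and lay in opposite directions. The share of all genes with such groups was not counted, so whether these members are unusual was not tested. The log2 fold change of Adam17 was -0.70 in HFSCs and 0.31 in EpdSCs. That of Adam9 was -2.50 in HFSCs and 0.53 in EpdSCs, and that of Mmp2 was -2.26 in HFSCs and 2.72 in EpdSCs. For Adam17 and Adam9 the EpdSC side depends on the scaling: with library totals the groups overlap and the values are 0.04 and 0.26, and Adam17 is at 0.11 without WT replicate 2. For Mmp2 the EpdSC value is 2.45 with library totals and the groups stay apart. None of the 6 values was called, and the difference between the cell types was not tested, since the tables were normalized separately. The WT libraries are also from mice of 2 months in HFSCs and 6 months in EpdSCs.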

How the results depend on the processing

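Over the 11 alternatives for each cell type, the 12 HFSC members named by the rule gave 126 values. In 106 the sign and the state of not being called stayed, in 18 the sign stayed and the member was called, and in 2 the sign was reversed. The reversed values are 0.49 for Mmp14 and 0.28 for Timp2, both without Msx2-KO replicate 2, and without Msx2-KO replicate 1 they were -1.40 and -1.60. The 13 EpdSC members gave 143 values, with 125, 14 and 4 in the same order. The 4 reversed values are -0.37 for Adam10 without Msx2-KO replicate 1 (it was 0.98 when replicate 2 was left out), and for Timp3 -0.23 with library totals, -0.57 without WT replicate 1 and -0.09 without Msx2-KO replicate 2 (0.64 without WT replicate 2). The cause was not tested. These counts say nothing of size: values that kept their sign could come close to 0, as in HFSCs with library totals (Adamts19 from 0.95 to 0.01, Adamtsl1 from 1.43 to 0.39, Timp3 from 1.38 to 0.56), and members that were called could have smaller values, as Mmp28 in EpdSCs without Msx2-KO replicate 1 (from -5.70 to -3.18). In EpdSCs, Mmp14 went from -4.42 to -1.01 without Msx2-KO replicate 1, Mmp19 from 3.67 to 1.18 without WT replicate 2, and Adam10 from 0.31 to 0.04 with library totals.

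The count of HFSC genes called was 0, and it was 690 with DESeq2, 51 with library totals, 2 with at least 10 counts in every library and from 132 to 9272 with a library left out. RLE factors, leaving out mitochondrial and ribosomal RNA genes, and no filter on low counts each gave 0. The count of HFSC members called, 0, was 2 with DESeq2 and from 0 to 21 with a library left out, and it stayed at 0 otherwise. The HFSC member median of -1.04 was -1.91 with library totals, -2.46 with no filter on low counts, -0.44 with at least 10 counts in every library and from -2.17 to -0.60 with a library left out. Library totals, which include mitochondrial ribosomal RNA, moved the median of all HFSC genes by -0.86 and turned the sign of Adam1a, Adam22, Adamts17 and Adamts3. Leaving out mitochondrial and ribosomal RNA genes, with TMM factors, moved that median by -0.06 and turned no member's sign. The member median was then -1.08. With a library left out, the lone library is assumed to vary like the other group.

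The count of EpdSC genes called, 1518, was from 0 to 10376 with a library left out and from 1111 to 2132 otherwise. The count of EpdSC members called, 0, was 3 with a pseudocount of 10, 1 with a trend on the mean and from 0 to 13 with a library left out. Of all 16231 genes, 1973 were called with a pseudocount of 10 and 2132 with a trend on the mean. The EpdSC member median of -0.98 was -0.77 with a pseudocount of 10, -1.24 with library totals and from -1.36 to -0.73 with a library left out.

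Replicate numbers were not taken to pair the samples. Across genes, the difference between the 2 WT libraries and that between the 2 libraries labelled Msx2-KO correlated at -0.0492 in HFSCs and -0.0225 in EpdSCs. With a single difference per group, this cannot exclude a pairing. With the replicate number as a block, 231 HFSC genes and 0 HFSC members were called, and 1271 EpdSC genes and 1 EpdSC member, Adamts1 (adjusted p = 0.0400 from limma).

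With 2 libraries per group and an HFSC library labelled Msx2-KO that detects 19 of 61 members, absence at low counts cannot be told apart from loss of complexity in the library. Age differs with genotype in HFSCs, and the names of the libraries fall in separate sets by genotype in both cell types. The counts of Msx2 do not check the labels, and no protein or enzyme activity was measured.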
